A study of Mus musculus with 23 samples.

Results

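Prostaglandin synthesis genes were followed through serum stimulation of mouse fibroblasts. The genes considered were Ptgs1 and Ptgs2, which encode the cyclooxygenases COX-1 and COX-2, and Ptgis, which encodes prostacyclin synthase. Members were all probe sets to which the array's annotation gives one of these symbols alone. Of 12488 probe sets on the array, which name 8251 genes, 2 met this rule: 104647_at for Ptgs2 and 104538_at for Ptgis. No probe set in the annotation used carries Ptgs1 as its sole symbol, so Ptgs1 was not analysed here. Each of the other genes is therefore read through a single probe set.

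Prostaglandins are lipid signals made from arachidonic acid, which phospholipase A2 frees from cell membranes. The cyclooxygenases convert it to prostaglandin H2, the shared precursor from which terminal synthases such as Ptgis, microsomal prostaglandin E synthase and thromboxane synthase form the separate prostanoids. Ptgs1 is active in most tissues without stimulation, whereas Ptgs2 is known as an early response gene of fibroblasts that growth factors, phorbol esters and cytokines switch on, and its mRNA is short-lived.

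Primary mouse embryonic fibroblasts from C57/BLACK6 embryos of stage e14.5, labelled ATF1 -/+ in all groups, were held for 48 h in 1% dialyzed serum. For the next 2 h they received either 1% serum, the starved condition, or 10% serum, the treated condition, in both cases together with 200 µM 4-thiouridine and tritiated cytidine. The thiouridine is built into RNA made during those 2 h, and RNA enriched for it is called newly transcribed RNA. Per the labels' protocols, newly transcribed RNA was also amplified before labelling. Unamplified total RNA was the other measure, and total RNA that had been linearly amplified was the third. The 6 groups held 4 arrays each, apart from amplified RNA of starved cells with 3 arrays, 23 arrays in all. The labels number the arrays as biological replicates within each group, without saying whether these are separate embryos or cultures. There was no wild-type group and no culture without thiouridine, and the probe set for Atf1 lists several genes, so the genotype was not checked on the arrays.

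The deposited values were signals between 0 and 11017.1, with array medians from 7.3 to 75.2. They were quantile normalized and are given below as log2(normalized signal + 16), a scale that understates changes of weak signals. Signals of the 3′ and 5′ ends of control transcripts differed by kind of RNA: the log2 ratio for Gapdh was 2.24 ± 0.46 (SD, n = 4) in newly transcribed RNA of starved cells and 1.54 ± 0.48 (SD, n = 3) in amplified RNA, against -0.18 ± 0.12 (SD, n = 4) in unamplified total RNA. The newly transcribed and amplified arrays also fell into a pair of clusters, one of which held arrays 1 and 4 of both newly transcribed groups, arrays 1 and 3 of amplified starved RNA and arrays 1 and 4 of amplified treated RNA. Fibroblast collagens had high deposited signals, with a median of 3580.9 for Col1a1 and 5139.1 for Col1a2, while the probe set of the fibroblast gene Vim had a median of 21.6. Macrophage genes were also present, with medians of 621.9 for Csf1r and 523.6 for Cd68, whereas the defining endothelial genes Cdh5, Tie1 and Pecam1 were at 2.4, 1.9 and 24.6. In RNA of whole cultures, fewer cells of a type and less RNA per cell cannot be told apart.

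The promoter of Ptgs2 is shown because the list of factors acting on it, described further on, is read beside the gene. The sequence is from RefSeq on mouse build GRCm38.p6, plus strand, and the window searched ran from 250 bases before to 50 bases after the annotated start on chromosome 1. The first run covers the 250 bases before the start, chr1:150099781-150100030, with a GC box and a C/EBP palindrome in capitals. The second run lies just after the annotated start, chr1:150100037-150100062, with an overlapping CRE core and E-box in capitals.
Ptgs2 upstream: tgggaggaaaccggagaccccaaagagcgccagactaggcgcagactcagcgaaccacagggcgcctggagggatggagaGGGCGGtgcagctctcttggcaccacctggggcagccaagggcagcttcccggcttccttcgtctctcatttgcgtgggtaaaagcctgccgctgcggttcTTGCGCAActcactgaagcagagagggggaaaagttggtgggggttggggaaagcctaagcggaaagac
Ptgs2 site: accactaCGTCACGTGgagtccgctt

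Both strands were searched for 7 motifs by their letters alone. The C/EBP palindrome TTGCGCAA lay at bases -69 to -62 and is held by 0.183% of 32851 promoter windows of that length. The GC box GGGCGG lay at bases -170 to -165 and is held by 35.7% of windows. The CRE core TGACG, on the minus strand at bases 14 to 18 after the start (20.8% of windows), shares bases with the E-box CACGTG at bases 17 to 22 (7.15% of windows). Not in this window were the letters TGACGTCA of a full CRE (1.79% of windows), the AP-1 letters TGANTCA (7.81%) and the TATA box letters, TATAAA (13.6%). A match of letters is a description of the sequence, not a binding site. On the opposite strand, the annotated start of the non-coding gene Ptgs2os is 157 bases from that of Ptgs2. The window of Ptgis is not among the sequences used here.

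Ptgs2, the inducible cyclooxygenase, was higher in serum-treated than in starved cells in all 3 kinds of RNA, by 1.88 to 2.61 on the log2 scale. The rise passed the test in unamplified total RNA. For newly transcribed RNA it passed only when arrays of the same number were compared with each other, and in amplified RNA it did not pass. Ptgis, which turns prostaglandin H2 into prostacyclin, did not change by the test in any kind of RNA. Its largest serum difference, 0.46, was in newly transcribed RNA.

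In unamplified total RNA, Ptgs2 on starved arrays 1 to 4 was at log2 levels of 6.90, 6.67, 6.84 and 7.78. On treated arrays 1 to 4 it was at 9.56, 10.08, 9.07 and 9.90. The groups did not overlap, and the lowest treated array, number 3, lay above the highest starved array, number 4. Groups stood apart with the treated arrays higher for 1.52% of all probe sets in this kind of RNA. By number the differences were 2.66, 3.41, 2.23 and 2.13, and all 4 were positive for 8.67% of probe sets. The same order held in the values as deposited, where the starved signals were 92.7, 37.1, 121.4 and 183.8 and the treated signals 605.5, 1081, 509.6 and 896.4.

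The log2 means in total RNA were 7.05 ± 0.49 (SD, n = 4) for starved and 9.65 ± 0.45 (SD, n = 4) for treated cells. The difference was 2.61 ± 0.29 (SE; 95% interval 1.94 to 3.27), a ratio of 6.09, with an adjusted p of 0.0237 in limma. This test called 0.121% of probe sets in either direction, and Ptgs2 was rank 7 of 12422 by p. With array number as a block the difference was 2.61 ± 0.22 (SE) and the adjusted p in limma 0.0200, where 0.483% of probe sets were called. The call without the block was lost when starved array 1, 2 or 3 or treated array 2 or 4 was left out, with differences of 2.46 to 2.56 and adjusted p values in limma of 0.0541 to 0.118. With the block it was lost without the arrays numbered 1, 3 or 4 (adjusted p in limma 0.0842 to 0.158) and kept without number 2 (0.0386).

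**Figure D1:**
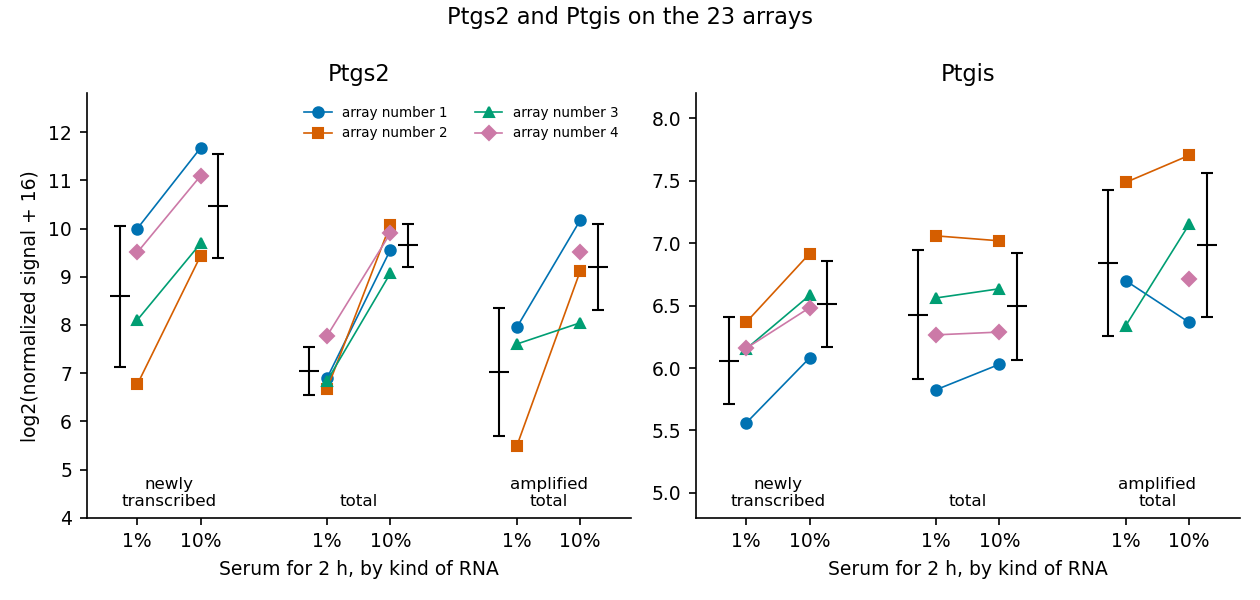
Log2(normalized signal + 16) of Ptgs2 (left) and Ptgis (right) on each array, for 1% and 10% serum within each kind of RNA; lines join arrays of the same number, and the black bars are group means ± SD (n = 4, or 3 for amplified RNA of starved cells). The vertical scales of the panels differ, and every Ptgs2 line goes up while the Ptgis groups overlap in each kind of RNA.

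In newly transcribed RNA, Ptgs2 on starved arrays 1 to 4 was at log2 levels of 10.00, 6.77, 8.10 and 9.50. On treated arrays 1 to 4 it was at 11.67, 9.43, 9.69 and 11.09. Arrays 1 and 4 were high and arrays 2 and 3 low in both conditions, and the groups overlapped, since starved array 1 lay above treated arrays 2 and 3. Groups stood apart with the treated arrays higher for 2.13% of probe sets. The high arrays 1 and 4 are those of the first array cluster. Compared by number, treated cells were higher by 1.67, 2.67, 1.59 and 1.59, so all 4 differences were positive, as they were for 13.7% of probe sets.

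The log2 means in newly transcribed RNA were 8.59 ± 1.46 (SD, n = 4) and 10.47 ± 1.08 (SD, n = 4). The difference was 1.88 ± 0.80 (SE; 95% interval 0.03 to 3.73), with an adjusted p of 0.760 in limma without a block, a fit that called 0% of probe sets although 800 had an unadjusted p below 0.05. With array number as a block, the difference of 1.88 ± 0.21 (SE; 95% interval 1.38 to 2.38) had an adjusted p of 0.0261 in limma, among 1.74% of probe sets called. Leaving out any 1 pair of arrays kept the difference between 1.62 and 1.98, but the adjusted p in limma was then 0.0624 to 0.166. Within the array clusters the difference was 1.63 for arrays 1 and 4 and 2.13 for arrays 2 and 3.

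In amplified total RNA, Ptgs2 on starved arrays 1 to 3 was at log2 levels of 7.95, 5.50 and 7.60, and on treated arrays 1 to 4 at 10.17, 9.12, 8.04 and 9.51. The groups did not overlap, as for 1.26% of probe sets with the treated arrays higher, but treated array 3 was close to starved array 1. In the values as deposited the groups overlapped, since treated array 3 was at 178.8 and starved array 3 at 191.2. Array number 3 did not pair in amplified RNA, so its numbers were not taken as pairs. By number the differences were 2.22, 3.62 and 0.44. The means were 7.02 ± 1.33 (SD, n = 3) and 9.21 ± 0.89 (SD, n = 4), a difference of 2.19 ± 0.72 (SE; 95% interval 0.50 to 3.89) with an adjusted p of 1.00 in limma. This comparison called 0% of probe sets in limma, with 175 at an unadjusted p below 0.05.

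**Figure D2:**
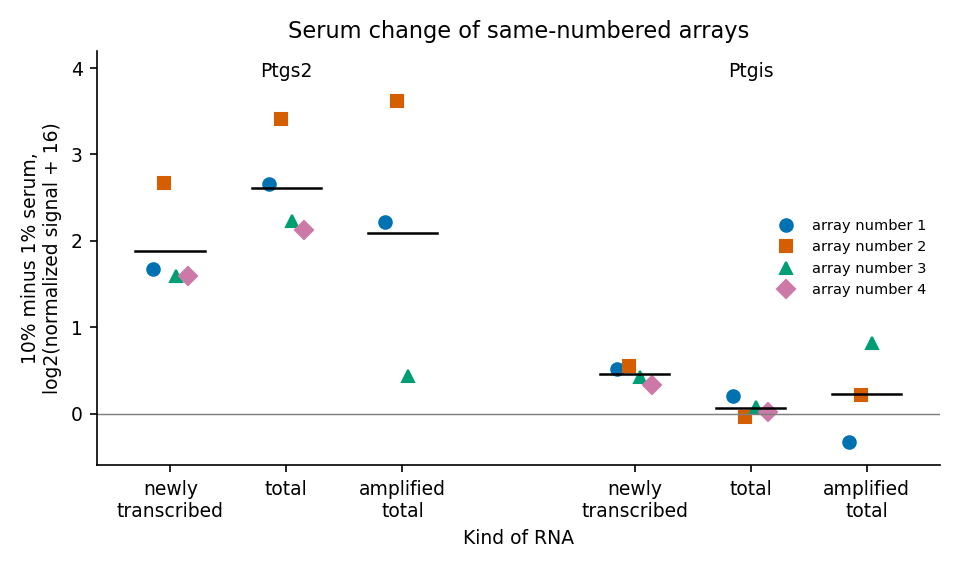
Differences on the log2 scale between arrays of the same number, treated minus starved, for Ptgs2 and Ptgis in the 3 kinds of RNA; each point is 1 pair, and the line at 0 marks no difference. All 11 Ptgs2 points lie above 0, from 0.44 to 3.62, whereas Ptgis points lie on both sides of 0 in total and amplified RNA. In the values as deposited, number 3 of amplified RNA had a lower Ptgs2 signal in treated (178.8) than in starved cells (191.2).

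The size of the Ptgs2 rise was compared between kinds of RNA as a difference of differences. The rise was smaller in newly transcribed than in total RNA by a log2 value of -0.73 ± 0.89 (SE; 95% interval -2.64 to 1.18; adjusted p 0.999 in limma). With array number within each kind of RNA as a block, the interval was -1.46 to 0.01 and the adjusted p 0.466 in limma. Against amplified RNA the difference of rises was -0.31 ± 1.15 (SE; 95% interval -2.80 to 2.17; adjusted p 1.00 in limma). Both comparisons called 0% of probe sets, with 299 and 201 at an unadjusted p below 0.05. Neither difference passed, and without the block both intervals include differences of more than a log2 unit. The rise in total RNA was not set against that in amplified RNA. Newly transcribed RNA was amplified and total RNA was not, and the part of amplification in their difference was not tested.

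Ordered by mean log2 level, Ptgs2 was highest in newly transcribed RNA of treated cells, followed by total and amplified RNA of treated cells, then newly transcribed, total and amplified RNA of starved cells. Of the 5 gaps between neighbours in that order, only the 1.54 between newly transcribed and total RNA of starved cells exceeded the larger SD of the groups, 1.46, and even there the ranges overlapped. By their means, the 3 treated groups thus lay above the 3 starved groups, whichever RNA was measured. Spread between arrays was wider in newly transcribed and amplified RNA, with SDs of 0.89 to 1.46, than in total RNA, with 0.45 and 0.49.

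Newly transcribed RNA was captured, and both it and amplified RNA were amplified before labelling. The levels of these 2 kinds of RNA were set against each other within a condition. For Ptgs2 in starved cells the newly transcribed level was higher by 1.57 ± 0.91 (SE; adjusted p 0.426 in limma), where 3.17% of probe sets were called. In treated cells it was higher by 1.26 ± 0.62 (SE; adjusted p 0.352 in limma), where 4.05% of probe sets were called. Differences by number were positive in 4 of 4 treated pairs, as they were for 20.9% of probe sets. They were also positive for the 3 starved numbers, as for 19.8% of probe sets, although starved arrays of these kinds were not taken as pairs. With array number as a block the treated difference of 1.26 ± 0.26 (SE) had an adjusted p of 0.0202 in limma, but 21.1% of probe sets were called in that fit, so the call does not set Ptgs2 apart.

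**Figure D3:**
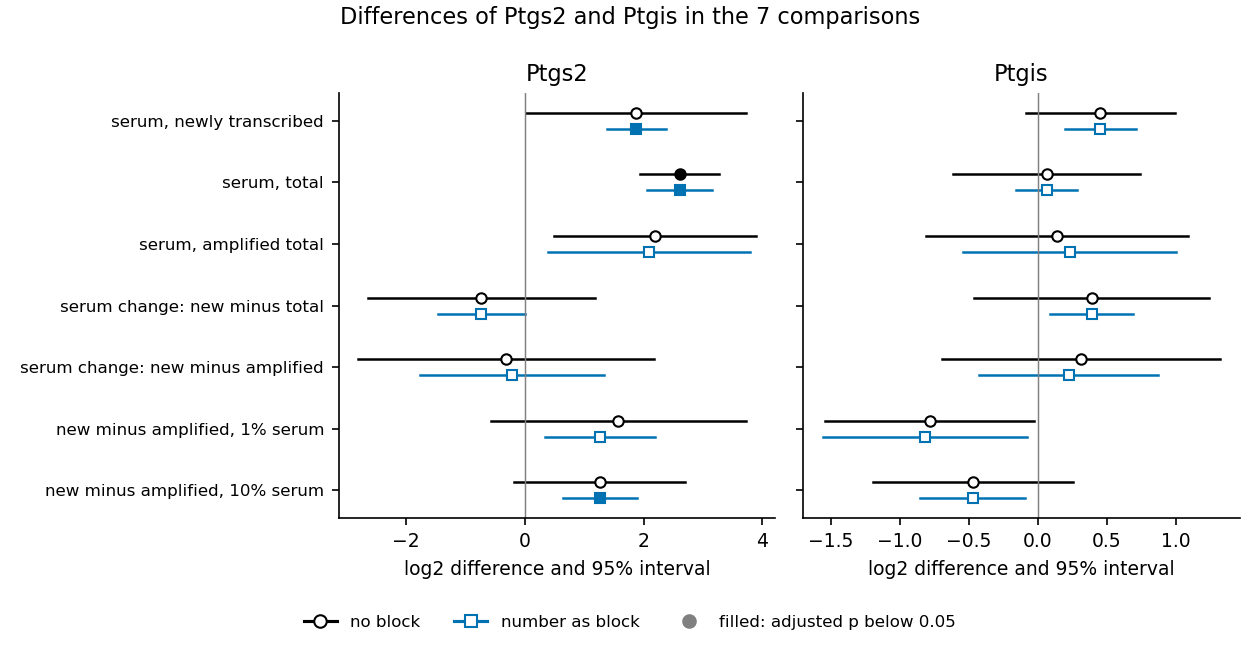
Log2 differences with 95% intervals for Ptgs2 (left) and Ptgis (right) in the 7 comparisons, from limma without a block (circles) and with array number as a block (squares). For the differences between serum changes, the block is array number within each kind of RNA. Filled symbols have an adjusted p below 0.05. Only Ptgs2 has filled symbols: serum in total RNA in both fits, and serum in newly transcribed RNA and newly transcribed minus amplified RNA at 10% serum with the block.

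Ptgis varied little between conditions and more between array numbers. In total RNA, starved arrays 1 to 4 were at log2 levels of 5.83, 7.06, 6.56 and 6.27, and treated arrays 1 to 4 at 6.03, 7.02, 6.64 and 6.29. Array 2 was highest and array 1 lowest in both conditions, and the groups overlapped over nearly their whole range. The difference was 0.06 ± 0.30 (SE; 95% interval -0.61 to 0.74; adjusted p 1 in limma). With the block the interval was -0.16 to 0.29, narrower than the gap of more than a log2 unit between arrays 1 and 2 of the starved cells.

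In newly transcribed RNA, Ptgis was at 5.56, 6.37, 6.15 and 6.16 on the starved arrays and at 6.08, 6.92, 6.58 and 6.48 on the treated arrays. The groups overlapped, but each treated array was above the starved array of its number, by 0.32 to 0.55, as for 13.7% of probe sets. The difference was 0.46 ± 0.23 (SE; adjusted p 0.874 in limma), and with array number as a block 0.46 ± 0.11 (SE; 95% interval 0.20 to 0.72; adjusted p 0.0852 in limma), so it did not pass in either fit. The serum difference of Ptgis in newly transcribed RNA exceeded that in total RNA by 0.39 ± 0.40 (SE, adjusted p 0.999 in limma) without a block. This excess was 0.39 ± 0.14 (SE, adjusted p 0.367 in limma) with array number within each kind of RNA as a block.

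In amplified RNA, Ptgis was at 6.70, 7.49 and 6.34 on the starved arrays and at 6.37, 7.70, 7.15 and 6.72 on the treated arrays. The groups overlapped, and 2 of 3 same-numbered differences, between arrays not taken as pairs, were positive, from -0.33 to 0.81. The difference of 0.14 ± 0.40 (SE; adjusted p 1.00 in limma) was smaller than the SDs of the groups, 0.59 and 0.58. No gap between neighbouring groups in the order of Ptgis levels exceeded the spread.

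Ptgis was lower in newly transcribed than in amplified RNA, by a log2 value of -0.78 ± 0.32 (SE; adjusted p 0.259 in limma) in starved and -0.47 ± 0.31 (SE; adjusted p 0.528 in limma) in treated cells. No same-numbered difference was positive, over 3 numbers of starved and 4 pairs of treated arrays. The share of probe sets with no positive difference was not counted. All were positive for 19.8% of probe sets in starved and 20.9% in treated cells. Ptgs2 had the opposite sign in both conditions, and neither gene passed without the block.

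Macrophage RNA varied between the same arrays. The summed normalized signal of the 14 macrophage markers, all of them measured and none at 0 throughout, ranged from 4677 to 10725 in starved and from 4760 to 11270 in treated total RNA. It ranged from 2032 to 6480 in starved and 3669 to 8716 in treated newly transcribed RNA, and from 4570 to 12666 and from 4760 to 13201 in amplified RNA. On the log2 scale the sum was higher in treated cells in 3 of 4 newly transcribed pairs (mean difference 0.46, from -0.01 to 0.87). It was also higher in 4 of 4 total pairs (0.24) and for 3 of 3 amplified numbers (0.44), which were not taken as pairs. Number 3 had the largest difference in both, 0.84 in total and 1.22 in amplified RNA. The smallest differences there were 0.03 and 0.05. In newly transcribed RNA the mean difference of this sum was as large as that of Ptgis, and it was smaller than that of Ptgs2 in every kind of RNA. No macrophage marker passed the test in these serum comparisons. Some markers of the other types passed in newly transcribed RNA with the block, where 1.74% of probe sets were called. Of 15 fibroblast markers, Thy1 rose by 1.04 (adjusted p 0.0266 in limma) and Lum fell by 1.38 (adjusted p 0.0461 in limma). Of 6 measured smooth muscle markers, Tagln rose by 0.69 (adjusted p 0.0416 in limma). None of these passed without the block. In total RNA, Thy1, Lum and Tagln differed by 0.07, -0.02 and 0.22 and did not pass. The sum of the 6 measured smooth muscle markers was 5709 to 6513 in starved and 6784 to 7960 in treated total RNA, without overlap. Single probe sets stood apart this way in 1.52% of cases, and no share was worked out for sums. The sums overlapped in newly transcribed RNA (2871 to 6967 and 3766 to 11969) and in amplified RNA (3716 to 6612 and 3455 to 9043). No smooth muscle marker passed in total RNA. Array 2, where Ptgis was highest in all 6 groups, had macrophage sums above those of array 1 in every group. The order did not hold for other arrays. In total RNA, array 4 had the highest sums, 10725 in starved and 11270 in treated cells. Its Ptgis levels there, 6.27 and 6.29, lay below those of arrays 2 and 3. The part of other cell types in the Ptgis or Ptgs2 values was not tested.

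The remaining genes of prostanoid synthesis and action were read from a list. Of 41 listed phospholipases, terminal synthases, transport and breakdown genes and receptors, 29 were measured, and limma called 0 in any serum comparison with or without the block. With the block, 1.74%, 0.483% and 0% of all probe sets were called in the newly transcribed, total and amplified RNA, so 0 of 29 is near that share and is no result about the pathway. Their median log2 serum difference was 0.05, -0.01 and 0.08 in the newly transcribed, total and amplified RNA, beside -0.01, -0.02 and -0.01 over all genes. Over all probe sets, 800, 614 and 175 had an unadjusted p below 0.05 in these comparisons without the block.

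Among the 10 measured genes of arachidonic acid release, Pla2g4a, the cytosolic phospholipase A2, differed by -0.16 ± 0.40 (SE) in newly transcribed and by -0.16 ± 0.26 (SE) in total RNA, with starved and treated means of 7.26 ± 0.26 and 7.10 ± 0.51 (SD, n = 4) in total RNA. Of the 8 listed synthases besides Ptgis, 5 were measured. Ptges, the inducible prostaglandin E synthase that acts with COX-2, was higher in treated cells in all 4 newly transcribed pairs, by 0.18 to 0.53. All 4 such differences were positive for 13.7% of probe sets. The Ptges difference of 0.35 had an adjusted p of 0.148 in limma with the block, and in total RNA the difference was -0.06. Hpgd, the dehydrogenase that inactivates prostaglandins, was lower in treated cells in all 4 newly transcribed pairs. The share of probe sets lower in all 4 pairs was not counted. Hpgd differed by -0.80 ± 0.21 (SE), with an adjusted p of 0.103 in limma with the block. In total RNA its difference was -0.08. The 3 measured transport and breakdown genes all had negative differences in newly transcribed RNA (median -0.51), and none passed. Over all genes, 48.1% had positive differences in this comparison.

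All 12 genes listed with the receptors, among them Ptgfrn and the nuclear receptors Ppard and Pparg, were measured and 0 passed. That is near the share of at most 1.74% of all probe sets called. Ptger2 and Ptger4 encode the prostaglandin E receptors that raise cyclic AMP, and their serum differences in newly transcribed RNA were 0.15 ± 0.32 (SE) and -0.41 ± 0.81 (SE). Ptgir encodes the receptor of prostacyclin, the product of Ptgis, and differed by 0.16, 0.23 and 0.70 in the newly transcribed, total and amplified RNA. Its signals were weak: the deposited values in amplified RNA were 0.7 to 11.2 in starved and 8.1 to 21.3 in treated cells. Ptger2 was weak too, with deposited values of 0.5 to 43 over all arrays. Of 10 measured genes listed under the lipoxygenase and leukotriene branch, which competes for the same arachidonic acid, 1 was called. It was Ephx1, microsomal epoxide hydrolase, which the list includes although it is neither a lipoxygenase nor a leukotriene enzyme. Ephx1 fell in newly transcribed RNA by 0.78 ± 0.13 (SE) with the block (adjusted p 0.0476 in limma), while 0.829% of probe sets were called lower. The call was lost when any 1 pair was left out, with adjusted p values in limma of 0.0752 to 0.225, and with the block on deposited values (0.202) or at a pseudocount of 1 (0.184). Its difference in total RNA was -0.08.

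**Figure D4:**
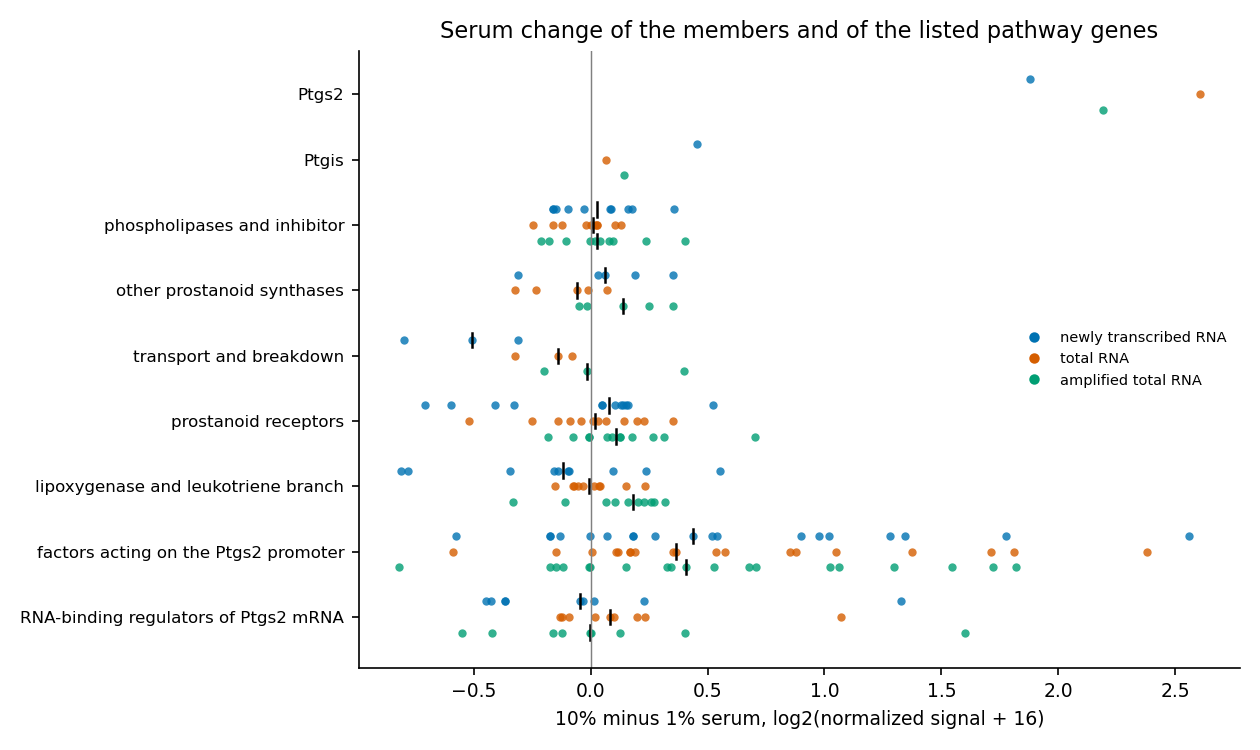
Log2 serum differences of Ptgs2, Ptgis and the measured genes of the pathway lists, grouped by role, in newly transcribed, total and amplified RNA; each point is 1 gene and each black tick a list's median. Ptgs2 lies between 1.88 and 2.61, to the right of all points of the phospholipases, synthases, breakdown genes and receptors, and the promoter factors have medians from 0.36 to 0.44.

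Of 22 factors known to act on the Ptgs2 promoter, 19 were measured. With array number as a block, 5 rose in newly transcribed RNA (0.91% of probe sets were called higher) and 5 in total RNA (0.459% called higher), in both cases Cebpb, Fosb, Fosl1, Junb and Nfatc1. Without the block 2 passed in total RNA by the probe sets used for the list, Fosb and Fosl1, and Junb by its other probe set (adjusted p 0.0353 in limma), where 0.113% of probe sets were called higher. The calls with the block were lost without pair 1, 3 or 4, on deposited values and at a pseudocount of 1, in both kinds of RNA. Without pair 2 only Fosb (adjusted p 0.0456 in limma) kept its call in newly transcribed and only Fosl1 (0.0386) in total RNA. The list's median serum difference was 0.44 in newly transcribed and 0.36 in total RNA. The list was drawn up with results for several of these genes known, so its counts are a description.

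Fosb and Fosl1 encode FOS-family partners in AP-1, Junb a JUN-family partner, Cebpb a C/EBP factor and Nfatc1 a calcium-regulated factor. Fosb rose by 2.56 ± 0.28 (SE; adjusted p 0.0261 in limma with the block) in newly transcribed RNA, and from 7.22 ± 0.35 to 9.60 ± 0.22 (SD, n = 4) in total RNA. Fosl1 was higher by 1.78 in newly transcribed and 1.81 in total RNA. Junb rose by 1.34 and 1.37 by the probe set used for the list, and by its other probe set, whose adjusted p in limma with the block was 0.0598 in newly transcribed RNA, the differences were 1.39 and 2.38. Cebpb rose by 0.98 ± 0.14 (SE; adjusted p 0.0390 in limma with the block) in newly transcribed RNA, where its levels in starved arrays had an SD of 1.82. Nfatc1 rose by 1.02 and 1.05 in newly transcribed and total RNA.

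Of 11 listed RNA-binding regulators of Ptgs2 mRNA, 9 were measured and 1 passed, where 0.91% of probe sets were called higher in newly transcribed RNA with the block. Zfp36, tristetraprolin, which binds AU-rich elements and speeds decay of such mRNAs, rose by 1.33 ± 0.16 (SE) in newly transcribed RNA with the block (adjusted p 0.0276 in limma). This call was lost when any 1 pair was left out (adjusted p 0.0624 to 0.178 in limma), on deposited values (0.282) and at a pseudocount of 1 (0.120). In total RNA its levels were 7.21 ± 0.56 in starved and 8.28 ± 0.38 (SD, n = 4) in treated cells, a difference of 1.07 with an adjusted p of 0.114 in limma with the block. Elavl1, the stabilising protein HuR, differed by 0.23 in newly transcribed and 0.20 in total RNA and did not pass.

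Across the 23 arrays, the genes whose levels followed Ptgs2 most closely by Pearson correlation were Egr2 (0.87), Ereg (0.86), Errfi1 (0.86), Ets1 (0.85) and Acsl4 (0.84). Egr2 is a zinc finger factor, Ereg an EGF receptor ligand and Errfi1 an inhibitor of that receptor, while Acsl4 couples arachidonic acid to coenzyme A. Ereg, for example, went from a mean of 8.12 to 9.83 in newly transcribed and from 6.27 to 8.69 in total RNA. For Ptgis the closest were S100a13 (0.84), Lst1 (0.84), Psmb8 (0.83), Stk16 (0.83) and Rgs10 (0.81). Their levels, like those of Ptgis, were highest in amplified RNA: Lst1, a gene of white blood cells, had means of 8.65 and 9.14 there against 6.80 and 7.47 in newly transcribed RNA. These correlations describe arrays that share serum, kind of RNA and preparation, and were picked as the highest among all probe sets.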

How the data were processed

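Deposited values were intensities, 1 linear Affymetrix signal per probe set and array, which the authors made from scanner data with software not given in the sources used here. Per the labels' protocols, newly transcribed and amplified RNA were amplified before biotin labelling. Signals were quantile normalized over the 23 arrays and analysed as log2(signal + 16) with limma 3.58.1 in R 4.3.3, two-sided, over 12422 probe sets without controls, with Benjamini-Hochberg adjustment and a threshold of 0.05. Only the groups compared entered a fit. No array was imputed, only fits with the block leave out an array without a partner, and the number of arrays limits the precision. The fit was checked on simulated data.

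Of the probe sets tested, 10833 had 1 gene symbol, 396 several and 1193 none in the platform annotation, and only the first were named. Members and gene lists were chosen with earlier results of these data known. Named genes were the members, every listed gene called in a serum comparison, 6 listed genes (Pla2g4a, Ptges, Ptger2, Ptger4, Ptgir and Hpgd) and the 5 probe sets most alike to each member. Elavl1 was added after its values were seen. P-values measure the spread between arrays, which may be technical.

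Replicate numbers come from the labels. Deviations of same-numbered starved and treated arrays from their group means correlated at 0.80, 0.80, 0.76 and 0.70 for newly transcribed and 0.70, 0.23, 0.47 and 0.57 for total RNA, so these numbers were taken as pairs, as were those of newly transcribed and amplified treated arrays (0.56 to 0.73). In amplified serum arrays the correlations were 0.69, 0.76 and -0.47 for numbers 1 to 3. Between newly transcribed and amplified starved arrays they were 0.37, 0.68 and -0.39. Because number 3 was negative in both, neither set was taken as pairs. Alternatives were the block, deposited or median-scaled values, pseudocounts of 1 and 64, a filter, 1 fit of all groups, array clusters and leaving out arrays.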

Additional observations from a re-analysis of the deposited data

Results flagged for a closer look

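Levels of 75 groups of 4 arrays were checked for an array far from the others by Dixon's ratio of the gap to the range, with a critical value of 0.829. Neither Ptgs2 nor Ptgis was picked out, and 4 groups of other listed genes were, where chance alone picks out about 1 group in 20. Ephx1 was low on array 1 in total RNA of starved cells (log2 level 9.39, the others up to 10.66; ratio 0.864) and of treated cells (9.24, the others up to 10.56; ratio 0.951). Fosb was high on array 2 of newly transcribed RNA of starved cells (9.42, the lowest at 7.47; ratio 0.847). Ptgir was low on array 1 of total RNA of treated cells (4.41, the others up to 4.97; ratio 0.852).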

How the results depend on the processing

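Alternatives changed 1 choice, except that the block was also joined with leaving out a pair or with another scale. Those within array clusters or joining the block with another scale were chosen after seeing the data. Ptgs2 kept a positive serum difference in all 3 kinds of RNA under every alternative run. In total RNA its call was lost on the values as deposited (2.75, adjusted p 0.104), in 1 fit of all 6 groups (2.61, adjusted p 0.514), with the block on deposited values (2.75, adjusted p 0.362) and with the block at a pseudocount of 1 (2.76, adjusted p 0.103), all in limma. Leaving out 1 array gave 2.46 to 2.85, and leaving out 1 pair with the block 2.34 to 2.76, where losses were at 2.59, 2.73 and 2.76. In newly transcribed RNA it passed only with the block (1.88) and with the block on median-scaled arrays (1.78), and without 1 array it was 1.27 to 2.35. The difference between newly transcribed and amplified treated RNA passed for Ptgs2 only with the block (1.26), also without pair 1 (1.18) or 2 (1.57).

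Signs turned only for differences that had not passed. Ptgis in amplified RNA was -0.011 with the cluster as a block, -0.060 within the second cluster, -0.11 to 0.46 without 1 array, and -0.059 to 0.51 without 1 pair with the block. In total RNA it was -0.14 to 0.28 without 1 array. Its difference between newly transcribed and total serum responses was -0.27 on deposited values, and against amplified RNA it was -0.48 there, -0.0092 to 0.56 without 1 array and -0.080 to 0.52 without 1 pair. The like difference of Ptgs2 against amplified RNA was -0.92 to 0.45 without 1 array and -0.94 to 0.29 without 1 pair. On deposited values the median of all probe sets shifted by -0.18, 0.21 and 0.25 in the serum comparisons of newly transcribed, total and amplified RNA, and by -0.45 and -0.53 in these differences.

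Counts of probe sets called in limma moved as follows, and the cause was not tested. In newly transcribed RNA the count was 0 without and 216 with the block. It was 3 at a pseudocount of 64, 30 in 1 fit of all groups, 45 with the cluster as a block, 2 within the second cluster, 293 with the block on median-scaled arrays, 0 with the block on deposited values or at a pseudocount of 1, 0 to 1 without 1 array and 0 to 25 without 1 pair. In total RNA the 15 calls became 60 with the block, 2 on deposited values, 7 at a pseudocount of 1, 24 among the brighter probe sets, 68 with the block on median-scaled arrays and 0 with the block on deposited values or at a pseudocount of 1. They were 1 to 19 without 1 array and 0 to 10 without 1 pair with the block (8 without pair 1). Amplified RNA had 3 calls in 1 fit of all groups and 0 without any 1 array. Between newly transcribed and amplified starved RNA the 394 calls became 0 on deposited values, at a pseudocount of 1 and with the block, 251 on median-scaled arrays, 1174 in 1 fit of all groups, 0 to 237 without 1 array and 0 without any pair. For treated RNA the 503 calls became 0 on deposited values, 231 at a pseudocount of 1, 2626 with the block, 1413 in 1 fit of all groups, 147 to 619 without 1 array and 818 to 3155 without 1 pair with the block (1056 without pair 3 and 1409 without pair 4). Amplified starved arrays were not taken as pairs. There the block removed the unpaired array 4 and gave Ptgs2 a serum difference of 2.09 and a level difference of 1.27, neither called. The block added calls of Ptgs2 for serum in newly transcribed RNA and for newly transcribed against amplified treated RNA. No other call of Ptgs2 or Ptgis was changed by the block. Few arrays and weak signals limit what these comparisons can show.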

Other observations

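Ptger4, the prostaglandin E receptor EP4, differed between newly transcribed and unamplified total RNA more than by serum. Its levels also followed the array clusters. In both conditions, newly transcribed arrays 1 and 4, of the first cluster, lay above arrays 2 and 3. The serum differences by number in newly transcribed RNA ran from -1.53 to 1.05. In newly transcribed RNA of starved cells its 4 arrays were at log2 levels of 8.85, 7.92, 8.08 and 8.99, and in unamplified total RNA of the same condition at 5.20, 4.96, 5.84 and 5.71, so the groups stood apart, as they did with the newly transcribed arrays higher for 15.4% of probe sets. In treated cells the newly transcribed arrays were at 9.0, 6.39, 6.76 and 10.04 and the total arrays at 4.65, 5.38, 5.72 and 5.61, which again did not overlap, as for 12.5% of probe sets. Amplified arrays were at 5.99, 4.78 and 8.403 in starved cells and spanned 5.12 to 8.28 in treated cells, overlapping the other groups. Newly transcribed and unamplified total RNA were not compared by a test here, and they differ in preparation and in the 3′ to 5′ signals of the control transcripts.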
